A study of Mus musculus with 6 samples.

Results

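Matricellular proteins and small proteoglycans are secreted molecules that sit in the extracellular matrix and tune how cells attach to it and how growth factors reach them. They were chosen by gene symbol, from a list of 10 genes grouped by function, drawn up with earlier results of these data known. The list comprised the small leucine-rich proteoglycans *Dcn*, *Bgn* and *Lum*, the thrombospondins *Thbs1* and *Thbs2*, and *Postn*, *Tnc*, *Npnt*, *Sparc* and the adhesive glycoprotein *Fn1*. Of these, 9 were found among the 14548 genes of the expression files, and all 9 passed the filter of at least 1 FPKM in at least 1 library. *Lum* was not analysed here.

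RNA-seq was available for C2C12, an established mouse myoblast line whose cells can fuse into muscle fibres. The libraries comprised 3 of WT cells and 3 of MSTN-KO cells, in which exon 3 of *Mstn* had been cut with CRISPR/Cas9. All 3 MSTN-KO libraries came from a single edited line, C11 in the study's account, so that the knockout and the properties of that line cannot be told apart. In the sample labels, however, the strain of both groups reads C11. The groups, and with them the direction of every difference, rest on the genotype label alone. The sample labels give no treatment or time in culture and do not say that replicates were separate cultures, and the p-values then measure only the spread between these libraries, which may be technical. The comparison asks how the loss of myostatin, a secreted member of the TGF-β superfamily that restrains muscle growth, was accompanied by changes in the RNA of these matrix genes.

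Small leucine-rich proteoglycans have a curved protein core, which in decorin and biglycan carries chondroitin or dermatan sulfate chains, and which binds collagen fibrils and growth factors, including members of the TGF-β superfamily. Decorin is known to bind myostatin. Matricellular proteins contribute little to the strength of the matrix and act through integrins, CD47, LRP1 and syndecans to change adhesion, migration and protease activity. In muscle they are made by myogenic cells and by fibroblasts, and several are known from the remodelling of the matrix during regeneration.

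Expression was given as FPKM, the fragments per kilobase of transcript per 1000000 mapped fragments, so that levels can be compared between genes per length. The FPKM values summed to 723704.6 to 764523.5 per WT library and to 856314.1 to 999579.0 per MSTN-KO library. Absolute depth is unknown, and depth relative to WT replicate 1, read from the smallest values, ranged from 0.857 to 1.11. All 7 myoblast markers in the files were tested. In MSTN-KO cells 4 were lower (*Myod1*, *Des*, *Ncam1* and *Chrna1*) and 2 were higher (*Pax7* and *Vgll2*), and *Myf5* was not called. Of 9 fibroblast markers in the files, 3 of 6 tested were higher (*Twist2*, *Tcf7l2* and *Osr1*) and 0 were lower. The 9 summed to 501 to 676 FPKM in WT and 548 to 763 FPKM in MSTN-KO libraries. Most of this was *Ly6a*, at 438 to 608 FPKM in WT and 467 to 677 FPKM in MSTN-KO libraries. *Pdgfra*, *Dpt* and *Pi16* stayed under 1 FPKM and were not tested, and the mean of *Dpt* was 0.0882 FPKM in WT and 0.448 FPKM in MSTN-KO cells, without overlap. The markers of endothelial cells (4 in the files), macrophages (3) and mast cells (2) reached at most 0.0581, 2.39 and 0.177 FPKM. All 22 tested markers of differentiating muscle were lower in MSTN-KO cells (limma, adjusted p under 0.05), with a median log2 fold change of -2.56. Their summed level also varied within WT, from 442 to 1447 FPKM, and was lowest in WT replicate 3. The part of these cell states in the results was not tested. In bulk RNA, fewer cells of a type and less RNA per cell cannot be told apart.

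Fold changes below are differences in mean log2(FPKM + 1) between MSTN-KO and WT, a scale that compresses differences between low values. Each was tested with limma across 10837 genes, and a gene was called where the Benjamini-Hochberg adjusted p was under 0.05. Of the 9 genes, 2 were higher and 5 were lower in MSTN-KO cells. Over all tested genes, 8.78% were called higher and 8.96% lower. With each library scaled to a sum of 1000000 FPKM, 1 of the 9 genes was higher and 7 were lower, beside 3.23% and 21.8% of all genes. The number called lower was 3 without WT replicate 2 and 2 without MSTN-KO replicate 3, where 5.64% and 6.68% of all genes were called lower. The number called higher was 1 without WT replicate 2 or MSTN-KO replicate 1, where 419 and 488 of the 10837 genes were called higher. By the criteria for differentially expressed genes (DEGs), that is an unadjusted p below 0.05 with a log2 fold change over 1 in either direction, *Bgn* and *Npnt* were downregulated and 0 of the 9 genes were upregulated, where the shares over all genes were 2.3% and 1.21%. With a pseudocount of 0.1 in place of 1, *Dcn* and *Postn* were downregulated DEGs as well, making 4 of the 9 genes beside 4.61% of all genes. The WT and MSTN-KO values did not overlap for 7 of the 9 genes, 2 with higher and 5 with lower MSTN-KO values, and the same was seen for 19.3% and 18.1% of all tested genes. The median log2 fold change was -0.42 over the 9 genes and 0.00 over all tested genes. An exact permutation test of a single gene cannot give a p below 0.1 with 3 libraries against 3.

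**Figure D1:**
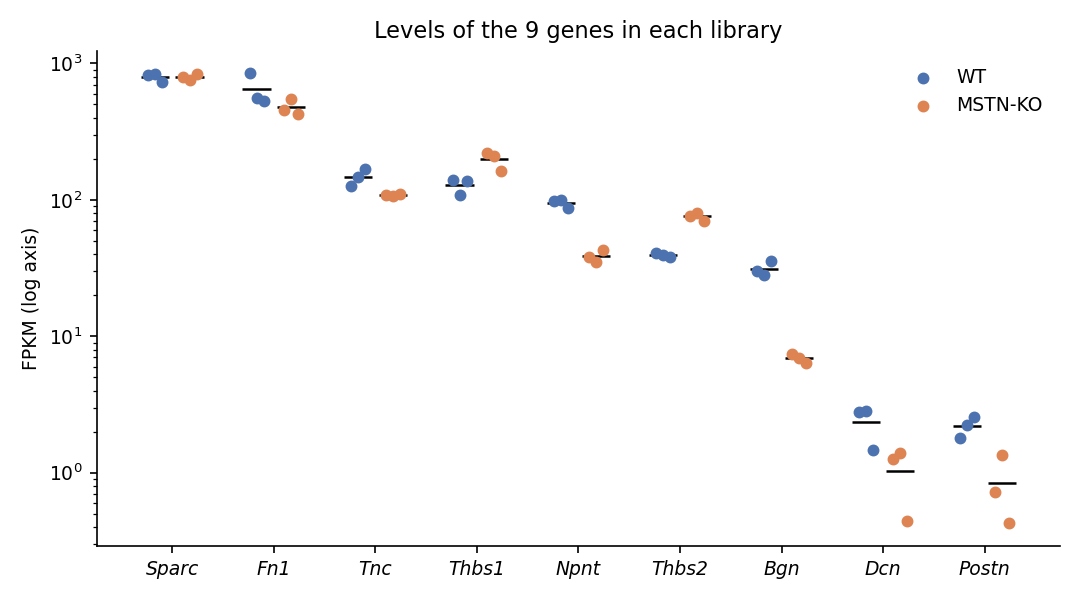
Expression of the 9 genes in each library, in FPKM on a log axis; points are the 3 WT (blue) and 3 MSTN-KO (orange) libraries in order of replicate number, and bars are group means. *Sparc* and *Fn1* lie near the top and *Dcn* and *Postn* near 1 FPKM, and the groups overlap only for *Sparc* and *Fn1*.

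The 9 genes together summed to 2112.6, 1828.2 and 1735.6 FPKM in WT and 1711.7, 1748.6 and 1655.0 FPKM in MSTN-KO replicates 1, 2 and 3, and the groups overlapped. As shares of the summed FPKM of all genes, which was larger in MSTN-KO libraries, these were 0.280%, 0.253% and 0.227% in WT. In MSTN-KO replicates 1, 2 and 3 they were 0.193%, 0.204% and 0.166%. *Sparc* and *Fn1* supplied between 72.9% and 79.3% of the sum of the 9 genes in every library. Levels differed widely among the 9 genes. *Sparc* ranked between 145 and 180 among the 14548 genes and *Fn1* between 151 and 317, whereas *Dcn* ranked between 8986 and 10791 and *Postn* between 9168 and 10821. The order of the WT means was *Sparc*, *Fn1*, *Tnc*, *Thbs1*, *Npnt*, *Thbs2*, *Bgn*, *Dcn* and *Postn*. In that order the WT libraries of *Fn1* reached into those of *Sparc*, those of *Tnc* and *Thbs1* overlapped, and those of *Dcn* and *Postn* overlapped. In MSTN-KO cells *Thbs1* and *Thbs2* stood above *Tnc* and *Npnt*, respectively.

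*Bgn* encodes biglycan, a small proteoglycan that carries a pair of chondroitin or dermatan sulfate chains and binds collagen and TGF-β. The gene (ENSMUSG00000031375) lies on chromosome X of GRCm38, from 73483602 to 73495933 on the plus strand. Its expression was 30.3, 28.1 and 35.4 FPKM in WT and 7.44, 6.93 and 6.34 FPKM in MSTN-KO replicates 1, 2 and 3. Every MSTN-KO library lay far below every WT library, and the spread within each group was small. The means were 31.3 ± 3.71 FPKM (SD, n = 3) in WT and 6.90 ± 0.549 FPKM (SD, n = 3) in MSTN-KO cells, a ratio of 4.53. The log2 fold change of -2.03 (SE 0.14, 95% interval -2.33 to -1.73, limma adjusted p = 8.73e-07) was the largest of the 9 genes. It was called in all 16 alternative settings, where it lay between -2.32 and -1.94.

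*Dcn*, which encodes decorin, the single-chain relative of biglycan, was scarce. The gene (ENSMUSG00000019929) lies on chromosome 10 from 97479609 to 97518143 on the plus strand. Its expression was 2.80, 2.83 and 1.47 FPKM in WT and 1.27, 1.40 and 0.444 FPKM in MSTN-KO replicates 1, 2 and 3. The groups did not overlap, but WT replicate 3 lay close to the first pair of MSTN-KO libraries. The means were 2.37 ± 0.777 FPKM and 1.04 ± 0.518 FPKM (SD, n = 3 each), a ratio of 2.28, and the log2 fold change was -0.73 (SE 0.23, 95% interval -1.23 to -0.23, limma adjusted p = 0.0454). The call was lost in 9 of 16 alternative settings, among them the fits without WT replicate 1 (limma adjusted p = 0.161), without WT replicate 2 (0.15) and without MSTN-KO replicate 3 (0.167). With a pseudocount of 0.1 the log2 fold change was -1.19 (limma adjusted p = 0.0576). WT replicate 3 differed from the mean of WT replicates 1 and 2 by -0.63 on the log2 scale, the largest such difference of the 9 genes, in a contrast where the markers of differentiating muscle had a median difference of -1.65.

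*Npnt* encodes nephronectin, a matrix ligand of integrin α8β1 with EGF-like repeats and an RGD motif. The gene (ENSMUSG00000040998) lies on chromosome 3 from 132881745 to 132950291 on the minus strand. Its expression was 97.3, 99.95 and 87.1 FPKM in WT and 38.4, 34.8 and 42.8 FPKM in MSTN-KO replicates 1, 2 and 3. The lowest WT library was more than 2 times the highest MSTN-KO library. The means of 94.8 ± 6.79 FPKM and 38.7 ± 3.98 FPKM (SD, n = 3 each) had a ratio of 2.45, and the log2 fold change was -1.27 (SE 0.13, 95% interval -1.55 to -1.0, limma adjusted p = 2.07e-05). *Npnt* was called in all 16 alternatives, between -1.56 and -1.20. The RNA of its integrin partner *Itga8* was at 0 in 5 libraries and at 0.00948 FPKM in MSTN-KO replicate 1.

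*Postn* encodes periostin, a fasciclin-domain protein that cross-links collagen and is known from fibroblasts of injured tissue. The gene (ENSMUSG00000027750) lies on chromosome 3 from 54361109 to 54391037 on the plus strand. Expression was 1.79, 2.22 and 2.54 FPKM in WT and 0.727, 1.36 and 0.427 FPKM in MSTN-KO replicates 1, 2 and 3, again without overlap. The means were 2.19 ± 0.377 FPKM and 0.838 ± 0.476 FPKM (SD, n = 3 each), a ratio of 2.61. The log2 fold change was -0.82 (SE 0.20, 95% interval -1.26 to -0.38, limma adjusted p = 0.015). Without MSTN-KO replicate 3, the lowest library, it was -0.65 (limma adjusted p = 0.0568), and the call held in the other 15 alternatives. With a pseudocount of 0.1 it was -1.40 (limma adjusted p = 0.0196).

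The thrombospondins were the 2 genes that were higher in MSTN-KO cells. Both are trimeric proteins that bind CD47 and proteases. Thrombospondin 1 can activate latent TGF-β, which thrombospondin 2 does not do. *Thbs2* (ENSMUSG00000023885, chromosome 17 from 14665500 to 14694235, minus strand) was at 40.5, 39.7 and 38.2 FPKM in WT and at 75.8, 80.7 and 70.0 FPKM in MSTN-KO replicates 1, 2 and 3. The WT values were almost equal, and every MSTN-KO value was clearly above them. The means were 39.5 ± 1.15 FPKM and 75.5 ± 5.36 FPKM (SD, n = 3 each), a ratio of 1.91, and the log2 fold change was 0.92 (SE 0.12, 95% interval 0.66 to 1.17, limma adjusted p = 0.000205). It was called in all 16 alternatives, between 0.64 and 0.97, and stayed under the fold required of a DEG.

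*Thbs1* (ENSMUSG00000040152, chromosome 2 from 118111876 to 118127133, plus strand) was at 139, 108 and 138 FPKM in WT and at 220, 210 and 163 FPKM in MSTN-KO replicates 1, 2 and 3. The groups did not overlap, and MSTN-KO replicate 3 was the nearest to WT. The means of 128 ± 17.6 FPKM and 198 ± 30.4 FPKM (SD, n = 3 each) gave a log2 fold change of 0.62 (SE 0.15, 95% interval 0.30 to 0.94, limma adjusted p = 0.0134). The call was lost without WT replicate 2 (log2 fold change 0.50, limma adjusted p = 0.0835) and without MSTN-KO replicate 1 (0.54, limma adjusted p = 0.0656), and it was lost with quantile normalization (limma adjusted p = 0.0647) and with scaling to a sum of 1000000 (0.149). The ratio of *Thbs2* to *Npnt* was 0.417 ± 0.0207 (SD, n = 3) in WT and 1.98 ± 0.340 (SD, n = 3) in MSTN-KO cells, so the order of this pair was turned around.

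*Tnc* encodes tenascin C, a hexameric glycoprotein of developing and regenerating muscle that opposes the adhesion of cells to fibronectin. The gene (ENSMUSG00000028364) lies on chromosome 4 from 63959785 to 64047015 on the minus strand. Expression was 125, 148 and 167 FPKM in WT and 109, 107 and 111 FPKM in MSTN-KO replicates 1, 2 and 3. The MSTN-KO libraries were nearly equal to each other, and WT replicate 1 was the nearest to them. The means were 147 ± 20.9 FPKM and 109 ± 1.56 FPKM (SD, n = 3 each), and the log2 fold change was -0.42 (SE 0.13, 95% interval -0.70 to -0.14, limma adjusted p = 0.0423). The call was lost in 9 of 16 alternatives, including every fit without 1 library except that without WT replicate 1: the adjusted p was 0.148 without WT replicate 2, 0.151 without WT replicate 3, and 0.125, 0.0625 and 0.0798 without MSTN-KO replicates 1, 2 and 3 (limma).

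*Fn1* encodes fibronectin, the adhesive glycoprotein on which fibrils of the matrix assemble. The gene (ENSMUSG00000026193) lies on chromosome 1 from 71585520 to 71653200 on the minus strand. Its expression was 847, 560 and 530 FPKM in WT and 459, 547 and 426 FPKM in MSTN-KO replicates 1, 2 and 3. WT replicate 1 stood far above the other libraries, and MSTN-KO replicate 2 lay inside the WT range. The means were 646 ± 175 FPKM and 477 ± 62.6 FPKM (SD, n = 3 each), and the log2 fold change of -0.41 (SE 0.18, 95% interval -0.79 to -0.03) did not pass the test (limma adjusted p = 0.125). Without WT replicate 1 the difference was -0.20 (limma adjusted p = 0.382). The 627 tested genes of chromosome 1, which also holds *Mstn*, had a median log2 fold change of -0.25.

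*Sparc* encodes osteonectin, a calcium-binding glycoprotein that binds collagen during its secretion and assembly. The gene (ENSMUSG00000018593) lies on chromosome 11 from 55394500 to 55423183 on the minus strand. It was at 829, 839 and 736 FPKM in WT and at 800, 759 and 835 FPKM in MSTN-KO replicates 1, 2 and 3, and the groups overlapped throughout. The means were 801 ± 56.9 FPKM and 798 ± 38.4 FPKM (SD, n = 3 each). The log2 difference had a 95% interval from -0.28 to 0.27 (SE 0.13, limma adjusted p = 0.983), so that a change within these bounds was not excluded. With each library scaled to a sum of 1000000, *Sparc* was called lower, by -0.29 (limma adjusted p = 0.045), beside a median of -0.26 over all tested genes at that scaling.

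**Figure D2:**
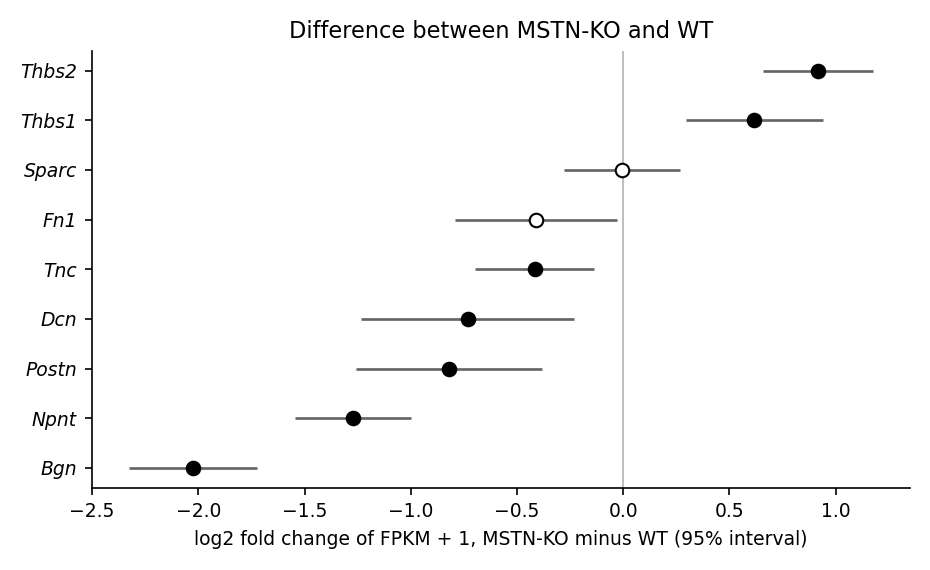
Log2 fold change of FPKM + 1 between MSTN-KO and WT for each gene (points), with 95% intervals (lines); filled points passed an adjusted p of 0.05 in limma and open points did not. *Thbs2* and *Thbs1* lie above 0, *Bgn* and *Npnt* lie farthest below it, and the interval of *Sparc* is centred near 0.

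The promoters of the 3 genes called in every alternative are shown because they are the members with the firmest differences, 2 lower and 1 higher. Each run holds the 250 bases before a RefSeq transcription start on GRCm38.p6, 5′ to 3′ on the strand of the gene. Capitals mark matches, on either strand, to any of 6 motifs: the E-box CANNTG bound by MyoD, the AP-1 motif TGANTCA, the SMAD motif CAGAC, the TEAD motif GGAATG, the TATA motif TATAAA and the GC box GGGCGG.
Bgn, chrX:73483351-73483600, plus strand: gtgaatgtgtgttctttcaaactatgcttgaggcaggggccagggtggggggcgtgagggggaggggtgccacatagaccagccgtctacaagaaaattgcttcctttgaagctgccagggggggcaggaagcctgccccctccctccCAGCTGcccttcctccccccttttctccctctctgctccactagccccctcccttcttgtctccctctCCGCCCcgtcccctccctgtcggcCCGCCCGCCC
Npnt, chr3:132950292-132950541, minus strand: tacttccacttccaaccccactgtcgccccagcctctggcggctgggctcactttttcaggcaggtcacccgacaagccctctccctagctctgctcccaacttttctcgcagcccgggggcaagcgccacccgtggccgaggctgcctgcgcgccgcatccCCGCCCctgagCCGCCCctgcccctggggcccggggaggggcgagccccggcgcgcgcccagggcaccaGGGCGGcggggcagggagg
Thbs2, chr17:14694263-14694512, minus strand: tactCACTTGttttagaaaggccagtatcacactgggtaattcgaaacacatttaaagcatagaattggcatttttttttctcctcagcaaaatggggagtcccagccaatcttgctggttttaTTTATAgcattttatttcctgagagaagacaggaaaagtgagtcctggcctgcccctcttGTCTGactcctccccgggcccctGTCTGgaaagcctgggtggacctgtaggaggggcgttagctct

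The *Bgn* and *Npnt* windows held 64.4% and 74.0% G and C, and the *Thbs2* window held 46.8%, where the median over all promoters of the table was 52.4%. *Bgn* held 3 GC boxes, at -34, -10 and -6, of which the last pair overlap, and an E-box at -102. RefSeq gives 2 starts for *Npnt*. The window shown, of the first start, held 3 GC boxes, at -88, -77 and -19, and none of the other 5 motifs, and the window of the second start held 0 GC boxes and 2 E-boxes, at -184 and -32. *Thbs2* held no GC box, and had an E-box at -246, TATAAA at -126 and CAGAC at -66 and -43. Of all 32851 promoters of this length, 32.7% held a GC box, 66.2% an E-box, 42.2% CAGAC, 12.4% TATAAA, 12.6% the TEAD motif and 6.75% the AP-1 motif. Among the 6 of the 9 genes with an entry, 0 held the AP-1 or TEAD motif. These matches describe letters only, and binding was not measured.

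The study also followed microRNAs in these cells, and 5 of them had their own assays. Their levels were not analysed here. The mature sequences from the RefSeq table are shown for 3 of them, with the seed (bases 2 to 8) in capitals, because the matches in the 9 genes are counted from these letters. The 3 seeds are all different, and mmu-miR-301b-3p is named only.
mmu-miR-130b-3p: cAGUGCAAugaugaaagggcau
mmu-miR-335-3p: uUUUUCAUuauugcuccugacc
mmu-miR-206-3p: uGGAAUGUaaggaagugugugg

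Matches to the seeds were searched in the longest annotated 3′ UTR of each gene (GENCODE M21, GRCm38), one such UTR for each of 10660 tested genes. The mmu-miR-130b-3p match TTGCACT was in *Npnt* and *Thbs2* and in 12.3% of all genes. The mmu-miR-335-3p match ATGAAAA was in *Sparc*, *Thbs1*, *Thbs2* and *Tnc* and in 20.8% of all genes, and the mmu-miR-206-3p match ACATTCC was in *Fn1* and *Thbs1* and in 12.1%. Of the 5 genes called lower in MSTN-KO cells, *Npnt* and *Tnc* held 1 of these 3 matches each and *Bgn*, *Dcn* and *Postn* held none. Of the genes called higher, *Thbs1* and *Thbs2* held 2 each. These counts were not adjusted for UTR length, which was 488 bases in *Dcn*, 648 in *Tnc*, 738 in *Postn* and 1137 in *Bgn*. It was 2013 bases in *Thbs2*, 2104 in *Thbs1* and 2685 in *Npnt*. The sites in the pair of genes that share the mmu-miR-130b-3p match are shown with 8 bases on either side and the match in capitals.
Npnt, mmu-miR-130b-3p, chr3:132881888-132881894, minus strand: ataagacaTTGCACTacactgat
Thbs2, mmu-miR-130b-3p, chr17:14667327-14667333, minus strand: aacatcaaTTGCACTccaagagc
The shared match began at base 2536 of the 2685 bases of the *Npnt* UTR and at base 180 of the 2013 bases of the *Thbs2* UTR. *Npnt* was 2.45 times lower and *Thbs2* was 1.91 times higher in MSTN-KO cells. Whether the matches bear on these differences was not tested.

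The markers of differentiating muscle were lower in WT replicate 3 than in the other WT libraries, as they were in MSTN-KO cells, and the 9 genes were set beside this difference. *Bgn* (0.27), *Tnc* (0.29) and *Postn* (0.24) were higher on the log2 scale in WT replicate 3 than in the mean of WT replicates 1 and 2, although all were lower in MSTN-KO cells. *Npnt* differed by -0.18, *Thbs1* by 0.17, *Sparc* by -0.18 and *Thbs2* by -0.07. *Fn1* (-0.38) and *Dcn* (-0.63) were the genes lowest in WT replicate 3. These are values of a single library.

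**Figure D3:**
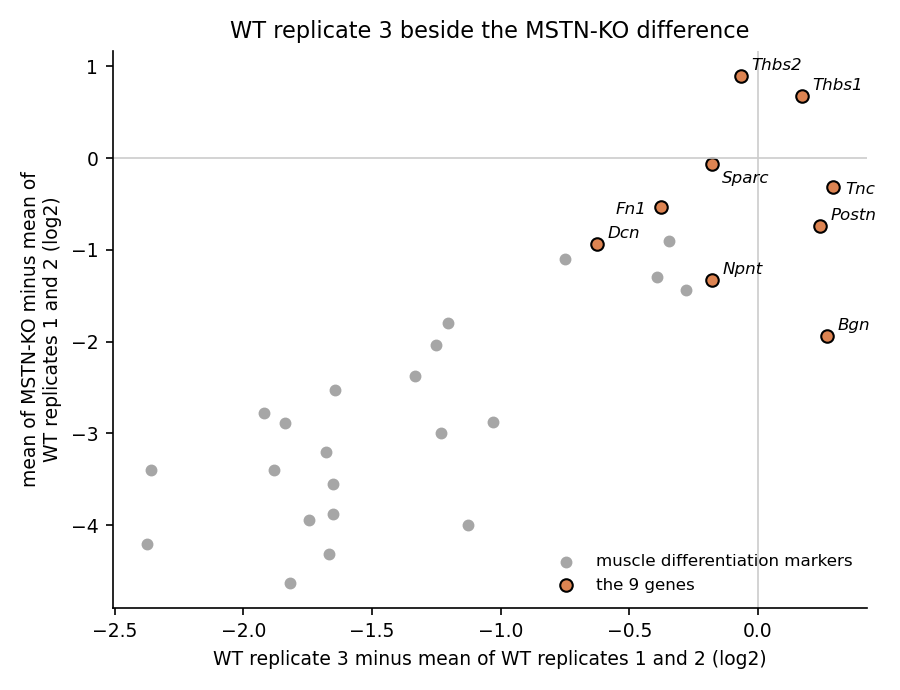
Difference of WT replicate 3 from the mean of WT replicates 1 and 2 (x axis) beside the difference of the MSTN-KO mean from the same mean (y axis), both in log2(FPKM + 1), for the 9 genes (orange) and the tested markers of differentiating muscle (grey). Both axes subtract the same pair of libraries; the markers lie to the lower left, with a median of -1.65 on the x axis, and *Bgn* lies low on the y axis at 0.27 on the x axis.

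Genes related to the 9 were taken from 5 lists by function. They comprised other small leucine-rich proteoglycans, other matricellular proteins, receptors, enzymes that build or modify the sugar chains, and genes known to respond to TGF-β. The lists held 101 distinct genes, of which 90 were in the files and 63 were tested. Of the 63, 15 were higher and 4 were lower in MSTN-KO cells, beside 8.78% and 8.96% of all tested genes. Their median log2 fold change was 0.11. With each library scaled to a sum of 1000000 FPKM, 8 were higher and 11 lower, beside 3.23% and 21.8% of all tested genes. *Ccn2* and *Tgfbi* stood on 2 lists each and were counted once here, but in each of their lists below.

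Of the other small leucine-rich proteoglycans, 4 of 12 in the files were tested. Of these 1 was called higher and 0 lower, beside 8.78% and 8.96% of all tested genes. *Podnl1*, podocan-like 1, rose from 7.69 ± 0.968 to 13.8 ± 3.71 FPKM (log2 fold change 0.75, limma adjusted p = 0.0136). *Ogn*, which encodes osteoglycin and was named after its values were seen, was at 20.5, 18.9 and 13.5 FPKM in WT and 10.7, 20.4 and 6.69 FPKM in MSTN-KO replicates 1, 2 and 3, and the groups overlapped. No other gene of this family was called lower, as *Bgn* and *Dcn* were. However, the log2 fold changes of *Prelp* (-0.52), *Ogn* (-0.56) and *Tsku* (-0.08) were also negative, and the list median was -0.30. *Prelp*, also named after its values were seen, had means of 0.830 FPKM in WT and 0.232 FPKM in MSTN-KO cells, without overlap (limma adjusted p = 0.122).

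Of 17 tested matricellular genes, 8 were higher and 0 were lower in MSTN-KO cells, beside 8.78% and 8.96% of all tested genes. Their median log2 fold change was 0.41. *Ccn5*, a growth-regulating member of the CCN family without the C-terminal module, was at 1.88, 1.59 and 0.966 FPKM in WT and at 15.4, 15.5 and 15.8 FPKM in MSTN-KO replicates 1, 2 and 3 (log2 fold change 2.76, SE 0.17, limma adjusted p = 2.39e-07). *Smoc2*, a relative of SPARC, rose from 2.01 ± 0.851 to 12.8 ± 4.88 FPKM (2.17, limma adjusted p = 0.000149). *Fbln7*, a fibulin, rose from 1.07 ± 0.0538 to 8.14 ± 1.29 FPKM (2.13, limma adjusted p = 1.5e-06). The other 5 that rose, named after their values were seen, were *Ccn1* (0.91), *Efemp2* (0.57), *Mgp* (0.52), *Matn2* (0.50) and *Fbln1* (0.41).

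Of 15 tested receptors, 3 were higher and 1 was lower, beside 8.78% and 8.96% of all tested genes. *Cd47*, the receptor of thrombospondins, rose from 50.5 ± 4.71 to 91.5 ± 11.4 FPKM (log2 fold change 0.84, limma adjusted p = 0.000958). *Lrp1*, which takes up thrombospondins from the cell surface, rose from 112 ± 4.49 to 191 ± 16.3 FPKM (0.76, limma adjusted p = 0.000972). *Itgb5*, an integrin subunit, rose from 52.6 ± 8.0 to 98.4 ± 5.65 FPKM (0.90, limma adjusted p = 0.000683). *Itgb1*, the β1 subunit that pairs with α8 in the receptor of nephronectin and with α5 in that of fibronectin, fell from 196 ± 18.1 to 125 ± 25.2 FPKM (-0.66, limma adjusted p = 0.0113). *Cd47* and *Lrp1* were higher in the same cells as *Thbs1* and *Thbs2*, and *Itgb1* was lower in the same cells as *Npnt*. The other 11 tested receptors were not called. Among them, named after their values were seen, were the integrin subunits *Itga5*, *Itgav* and *Itgb3* and the syndecans *Sdc1*, *Sdc2*, *Sdc3* and *Sdc4*. A link between these receptors and the 9 genes was not tested.

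Of 19 tested chain-building enzymes, 2 were higher and 0 were lower, beside 8.78% and 8.96% of all tested genes. *Chst1*, a sulfotransferase that acts on keratan sulfate, rose from 14.9 ± 0.396 to 35.5 ± 7.69 FPKM (log2 fold change 1.17, limma adjusted p = 0.00023). *Csgalnact1*, which starts chondroitin sulfate chains such as those of biglycan, rose from 7.66 ± 0.368 to 13.4 ± 2.68 FPKM (0.71, limma adjusted p = 0.00891). The other 17 were not called.

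Of 9 tested genes known to respond to TGF-β, 1 was higher and 3 were lower, beside 8.78% and 8.96% of all tested genes. *Tagln*, transgelin, fell from 172 ± 21.6 to 68.3 ± 9.72 FPKM (log2 fold change -1.33, limma adjusted p = 3.83e-05). *Ltbp2*, which binds fibrillin, fell by 0.65 on the log2 scale (limma adjusted p = 0.016). *Acta2*, smooth muscle actin, rose from 1126 ± 10.8 to 1563 ± 224 FPKM (0.46, limma adjusted p = 0.0372). The calls of this list went both ways, as did those of the 9 genes.

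**Figure D4:**
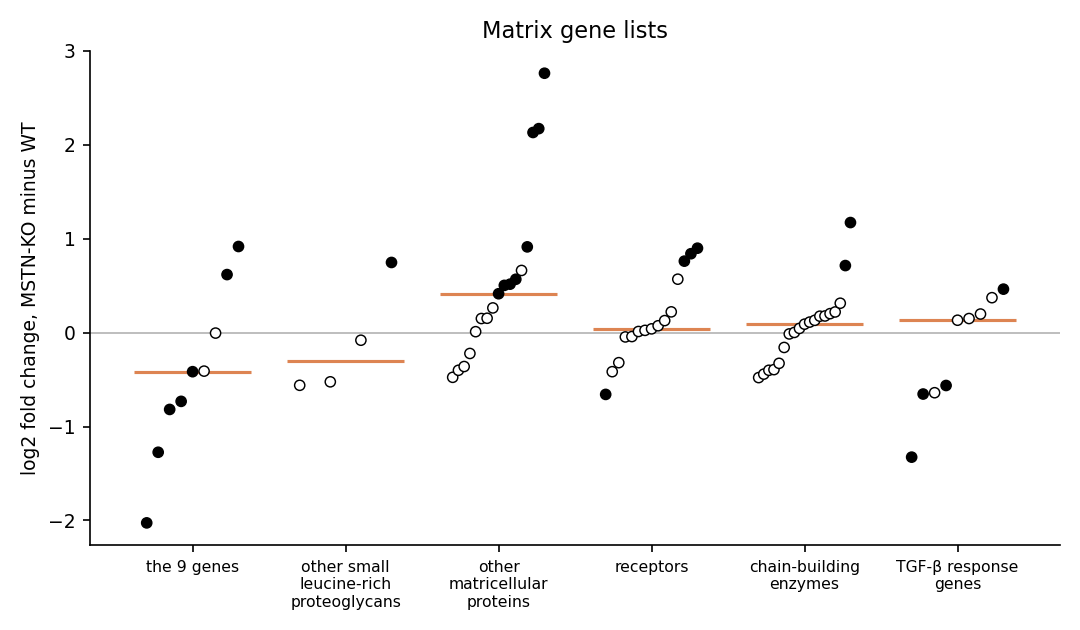
Log2 fold change of FPKM + 1 between MSTN-KO and WT for the 9 genes and for the tested genes of the 5 lists; each point is a gene, filled where the adjusted p in limma was under 0.05, and orange bars are list medians. The median of the 9 genes is -0.42 and that of the other matricellular proteins is 0.41, with *Ccn5*, *Smoc2* and *Fbln7* above 2.

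**Figure D5:**
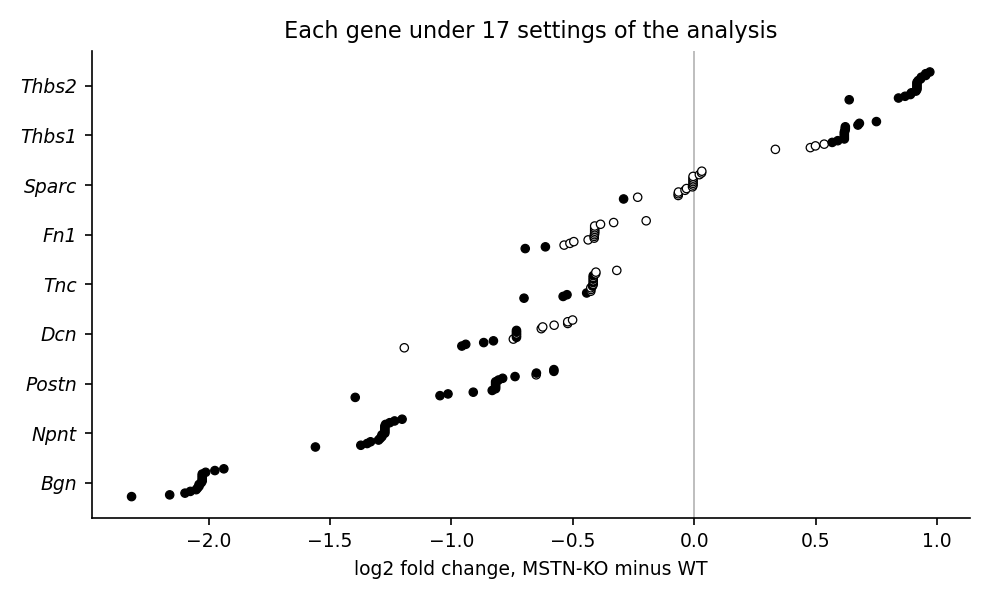
Log2 fold change of each of the 9 genes under the main setting and its 16 alternatives, 1 point per setting in order of value; filled points had an adjusted p under 0.05 in limma and open points did not. *Bgn*, *Npnt* and *Thbs2* are filled throughout, whereas *Dcn* and *Tnc* are open in 9 alternatives each and *Sparc* straddles 0.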

How the data were processed

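The 6 C2C12 libraries, 3 WT and 3 MSTN-KO, were assigned to groups by their genotype label, since the strain label reads C11 for both groups. Sequencing was on an Illumina HiSeq instrument, and the authors deposited FPKM values per gene, with 1 file for each library and no pooling. The submitters' processing notes name Bowtie 0.12.2 and mm8, without giving their roles, and whether fragments were counted by strand is not given in the sources used here. On the opposite strand, exons of *Fn1*, *Thbs1* and *Tnc* overlap 1 non-coding gene each in GENCODE M21, and reads of the 2 strands could then not be told apart. A few abundant genes lower the FPKM of all others.

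Symbols and positions came from GENCODE M21 (GRCm38), which matched 14445 of 14548 identifiers (99.3%). Genes reaching 1 FPKM in 1 library or more entered as log2(FPKM + 1), with no scaling added. A group difference was fitted to them by limma (version 3.58.1, R version 4.3.3), using its mean-variance trend. Intervals are the 95% intervals of that fit. Exact permutation tests of single genes went through the 20 possible regroupings. The fit was tested on simulated data with independent normal noise. It called 74% of the genes changed by 1 on the log2 scale and 97% of those changed by 2. Smaller changes were not simulated. The length and GC correction used mgcv 1.9.3, and other steps used Python 3.11.15 (scipy 1.17.1, matplotlib 3.10.9, pandas 2.3.3, numpy 2.4.6). The values of 1 gene of the TGF-β list, which stays in its counts, and the matches to 1 microRNA are not reported here. Promoters and microRNAs came from RefSeq tables of GRCm38.p6.

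The 10 genes and all lists were chosen with earlier results of these data known. All listed members were named, and from each of the 5 lists the 3 largest rises and the 3 largest falls with an adjusted p under 0.05. Alternative settings changed the pseudocount (0.1), the filter (none, or on the mean), the trend (none) and the normalization (3 kinds), or added the length and GC correction, or a block for the replicate number, alone and together with it, and each library was left out in turn.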

Additional observations from a re-analysis of the deposited data

How the results depend on the processing

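*Bgn*, *Npnt* and *Thbs2* kept their direction and their call in all 16 alternatives, *Postn* in 15, *Thbs1* in 12, and *Dcn* and *Tnc* kept their direction in all 16 and their call in 7. Scaling each library to a sum of 1000000 moved the median of all tested genes by -0.26 and changed the calls over all genes from 952 higher and 971 lower to 350 and 2367. Under it 1 of the 9 genes was higher, and 8 of the related genes were higher and 11 lower. Quantile normalization also left 1 of the 9 genes higher, where 971 of all genes were called higher. With scaling to a sum of 1000000, *Thbs1* missed the threshold (log2 fold change 0.33, limma adjusted p = 0.149, but 0.59 above the median of all tested genes). At that scaling *Fn1* passed it (-0.70, limma adjusted p = 0.0269), as it did with quantile normalization (-0.61, limma adjusted p = 0.0472). With a pseudocount of 0.1, 4 genes were downregulated DEGs. Without a filter 3 of the 9 genes were lower, as with the length and GC correction, alone or with the replicate block. Over all genes, 906 of 14548 were lower without a filter. With the correction 1291 of 10784 were lower alone and 1087 with the block. The related genes called lower numbered 7 with scaling to percentile 75, where 1048 of 10837 genes were lower. They numbered 8 with the length and GC correction, alone or with the replicate block.

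Leaving out 1 library gave between 1 and 2 genes called higher, between 2 and 4 called lower and between 3 and 9 related genes called lower. The calls over all 10837 genes moved as well, between 419 and 1175 higher and between 611 and 1233 lower. The related genes called higher fell to 10 without WT replicate 2 or MSTN-KO replicate 1, where 419 and 488 of all genes were called higher. The difference of *Sparc* turned to 0.021, 0.030 and 0.031 without WT replicate 1, WT replicate 2 and MSTN-KO replicate 2, within a range from -0.065 to 0.031. The replicate block alone gave 2 higher and 5 lower of the 9 genes, and 15 higher and 6 lower related genes. Over all 10837 genes, the block alone called 939 higher, beside 952 in the main setting. It called more genes lower than the 971 of the main setting. Same-numbered libraries correlated by -0.0153, -0.128 and -0.142 in their deviations from the group means, so the numbers were not taken as pairs. Depth in fragments is unknown, and the precision of the genes near 1 FPKM, *Dcn* and *Postn*, could not be given from counts. The cause of the changed calls was not tested.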
